A study of Mus musculus with 4 samples.

Results

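The genes described here belong to 7 families of transcription factors that direct the formation of tissues and germ layers: Sox, Gata, Pax, Tbx, Lhx, Nkx and the sine oculis homeobox genes. They were chosen by symbol alone, as autosomal protein-coding genes of GENCODE mouse release 21 whose name is that of a numbered member of one of the families, leaving out Sox2 and Tbx3. This gave 70 genes of the 20807 autosomal protein-coding genes, namely 17 Sox, 5 Gata, 9 Pax, 11 Tbx, 8 Lhx, 6 sine oculis and 14 Nkx genes, with 232 annotated transcript starts on 18 chromosomes. Chromatin accessibility near them was measured by ATAC-seq, in which a transposase cuts and tags open DNA, in E14 cells, a line of mouse embryonic stem cells (ESCs). All cells were grown in medium with serum and LIF, a cytokine that keeps ESCs undifferentiated, were infected with a pLKO lentivirus that carried a short hairpin RNA, and were selected with puromycin. The hairpin was directed at GFP in 1 library (shGFP) and at luciferase in 3 others (shLuc replicates 1, 2 and 3). Neither target is a mouse gene, so both groups are controls, and the cells shared the line, the medium, the infection and the selection. Nothing in the labels says whether the shLuc libraries came from separate cultures, so their spread may be technical. Each library is a list of peaks, intervals where fragments piled up, given by position only (mm10), with neither a height nor a read depth.

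These families are named after the DNA-binding domain or founding gene that their members share: the HMG box in Sox proteins, zinc fingers in Gata, the paired domain in Pax, the T-box in Tbx, and homeodomains in Lhx, Nkx and sine oculis proteins. Most members are silent or low in ESCs and are switched on in a restricted set of lineages, such as endoderm, heart, muscle, neural tube or pituitary. In ESCs many of their promoters are rich in CpG and are known to be occupied by Polycomb complexes, with the histone marks of activation and of repression on the same promoter, a state called bivalent.

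The number of peaks differed among the lists and bears on every count below. The shGFP list held 41943 peaks, and the shLuc lists held 17860, 41401 and 31585. Median peak width was between 603 and 663 bp in all 4 lists, and shLuc replicate 1 had both the fewest and the narrowest peaks. A comparison of 1 library with 3 cannot give an exact permutation p under 0.25, so no test between hairpins was run, and differences are set against the standard deviation (SD) of the 3 shLuc libraries. Markers of the labelled cell type were looked up the same way. Of 12 ESC marker genes, 12, 9, 12 and 12 had at least 1 peak no more than 20 kb from a start in shGFP and shLuc replicates 1, 2 and 3. Only Zfp42 and Tfcp2l1 (16.7%) had a peak within 1 kb in every library, against 44.0% of all autosomal protein-coding genes. Pou5f1, Nanog, Sox2, Dppa5a and Sall4 (41.7%) had none there in any, against 34.0%. Of 6 fibroblast genes and 6 primitive endoderm genes, 2 (33.3%, Col1a1 and Thy1) and 1 (16.7%, Dab2) had a promoter peak in every library. These shares were also below 44.0%, and promoter peaks did not single out the ESC genes. Within 20 kb, 5, 3, 6 and 5 of the fibroblast genes and 6, 2, 5 and 4 of the primitive endoderm genes had a peak. Over all autosomal protein-coding genes the shares within 20 kb were 83.5%, 66.3%, 83.4% and 77.9%. The lists are short and were not compared by a test.

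Promoter peaks were less frequent at the lineage transcription factors than at coding genes as a whole. A promoter peak is a peak whose nearest edge lay within 1 kb of the start of any annotated transcript of the gene. In shGFP, 34 of 70 members had one (48.6%, Wilson 95% interval 37.2 to 60.0), against 61.9% of all autosomal protein-coding genes, a background that includes the members. In shLuc replicate 1 it was 14 members (20%, 12.3 to 30.8) against a background of 48.4%. In shLuc replicate 2 it was 31 members (44.3%, 33.2 to 55.9) against 61.5%, and in shLuc replicate 3 it was 26 members (37.1%, 26.8 to 48.9) against 56.3%. The members were below the background in each of the 4 libraries, and in each the interval of the members ended below it. These intervals cover counting error over genes only. The shLuc mean was 33.8% ± 12.5 (SD, n = 3), which was 0.598 ± 0.162 (SD, n = 3) times the background. The shGFP share exceeded the shLuc mean by 14.8 percentage points, slightly more than the SD of 12.5, and was close to that of shLuc replicate 2. Over all autosomal protein-coding genes the shGFP share was also higher, by 6.53 points with a shLuc SD of 6.60.

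Within 20 kb of a start the members were closer to other genes. In shGFP, 57 members (81.4%, Wilson 95% interval 70.8 to 88.8) had a peak there, against a background of 83.5%. In shLuc replicates 1, 2 and 3 the counts were 32 (45.7%), 53 (75.7%) and 49 (70.0%), against 66.3%, 83.4% and 77.9% of all coding genes. Shares of members were thus below the background in all 4 libraries, but the interval of the members included the background in shGFP, in shLuc replicate 2 (64.5 to 84.2) and in shLuc replicate 3 (58.5 to 79.5). The shLuc mean was 63.8% ± 15.9 (SD, n = 3), and shGFP was 17.6 percentage points higher, slightly more than the SD. Over all coding genes shGFP was 7.63 points higher, with a shLuc SD of 8.72.

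Counted over all libraries, 11 members (15.7%) had a promoter peak in all 4, against 44.0% of coding genes, and 31 members (44.3%) had one in none, against 34.0%. At 20 kb, 29 members (41.4%) had a peak in all 4 libraries, against 63.1%, and 7 (10.0%) had one in none, against 13.1%. A single library weighed on these counts: 12 members (17.1%) had a promoter peak in every library but shLuc replicate 1, a pattern shown by 9.68% of coding genes. Among them were Sox5, Sox6, Sox11, Sox15, Sox21, Gata3, Gata5, Pax3, Pax5, Lhx3 and Nkx6-1, and without shLuc replicate 1 the count of members open in every library was 23. When all lists were cut to their 17860 widest peaks, the background became nearly equal, 48.4% in shGFP and 48.4%, 47.4% and 47.2% in the shLuc replicates. The members then stood at 41.4% in shGFP and at 20%, 35.7% and 32.9% in shLuc, so shLuc replicate 1 remained the lowest for the members at equal list length. The narrowest peak kept was 727 bp in shGFP and 221, 705 and 606 bp in shLuc replicates 1, 2 and 3. The lists thus had equal length but stayed unlike in width, and shLuc replicate 1 was not cut.

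By family, the shares varied, with few genes behind each. Sox genes had a promoter peak at 11, 5, 11 and 9 of 17 genes in shGFP and shLuc replicates 1, 2 and 3, and shLuc averaged 49.0% ± 18 (SD, n = 3). Gata genes had one at 2, 0, 2 and 2 of 5 genes, and Pax genes at 5, 1, 4 and 3 of 9. For Tbx genes the counts were 5, 3, 4 and 4 of 11, for Lhx 2, 1, 3 and 2 of 8, and for the sine oculis genes 3, 2, 3 and 3 of 6. Nkx genes had one at 6, 2, 4 and 3 of 14, with a shLuc mean of 21.4% ± 7.14 (SD, n = 3). The families are small and their intervals overlapped in every library, so no order among families is drawn from these shares. At 20 kb the Nkx genes had 13, 5, 13 and 11 of 14 genes with a peak, so that in shGFP most Nkx genes without a promoter peak had a peak farther out. The plot of shares by family shows both distances.

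**Figure D1:**
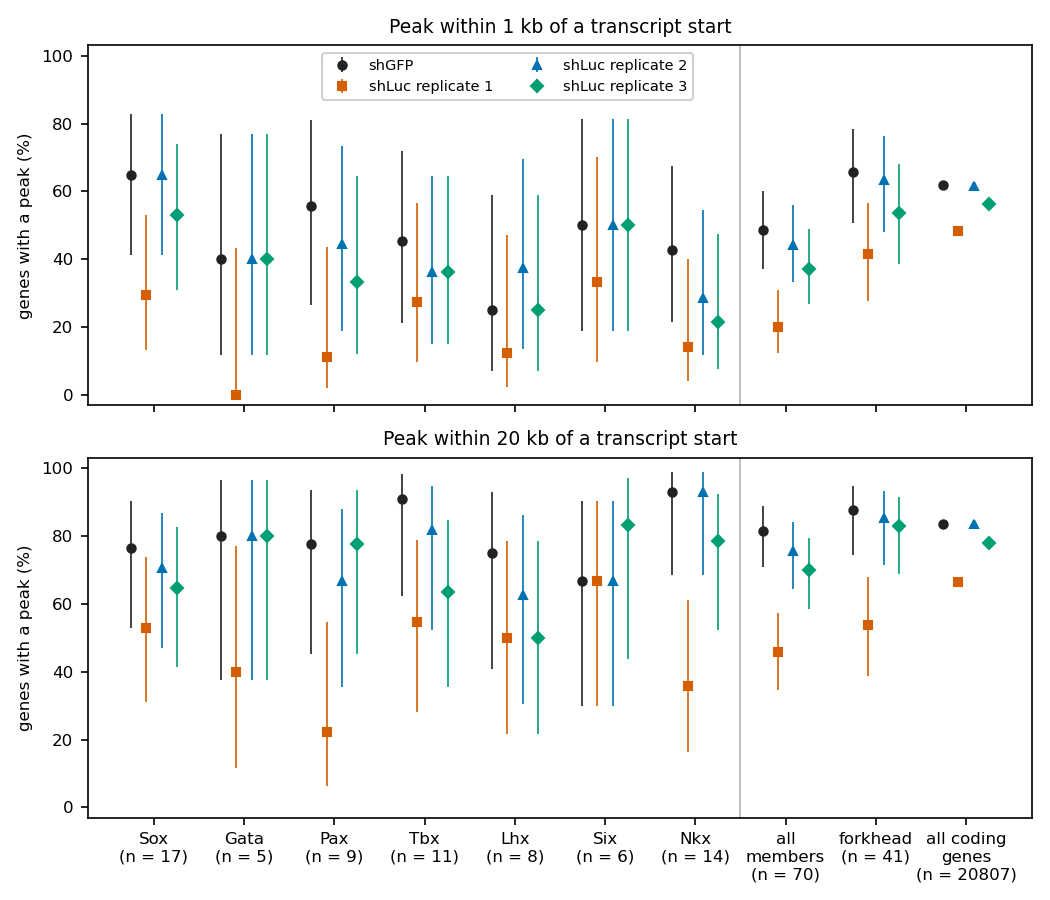
Percent of genes with a peak within 1 kb (top) and within 20 kb (bottom) of any transcript start, by family, for all 70 members, for 41 forkhead genes and for all autosomal protein-coding genes; points are libraries and bars are Wilson 95% intervals over genes. shLuc replicate 1 is lowest for all 70 members at both distances, and the members stand below all coding genes at 1 kb in each library.

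Forkhead genes, another family of developmental regulators, were taken as the most similar set. Of 41 forkhead genes, 27 had a promoter peak in shGFP (65.9%, Wilson 95% interval 50.5 to 78.4) and 17, 26 and 22 in shLuc replicates 1, 2 and 3. The forkhead share was thus above that of the members in all 4 libraries, but the intervals of both sets overlapped in each, for example 27.8 to 56.6 for forkhead genes and 12.3 to 30.8 for the members in shLuc replicate 1. The shLuc mean was 52.8% ± 11 (SD, n = 3) for forkhead genes. This difference between gene sets was not tested.

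The 11 members with a promoter peak in all 4 libraries included Sox8, Sox17, Sox30, Pax9, Tbx15, Tbx20, Tbx21, Six4, Six6 and Nkx2-4. No Gata and no Lhx gene was among them. These 10 are described below in groups, and not in order of peak width.

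Nkx2-4, a homeobox gene closely related to the thyroid and forebrain regulator Nkx2-1, had the widest peak on average. It was 1793 bp in shGFP (chr2:147083726-147085518) and 1812, 1820 and 1655 bp in shLuc replicates 1, 2 and 3. The shGFP width lay within the shLuc range, and the shLuc SD was 93.0 bp around a mean of 1762 bp. In shGFP the peak began 73 bp before the start of the gene and ended 1719 bp into it, and 59.2% of its bases were coding sequence. It thus covered most of this short gene, not only its start. Sox30, an HMG-box factor of developing sperm, had peaks of 1510, 1492, 1312 and 1071 bp, the shGFP one at chr11:45979665-45981174. These peaks lay across the start of the gene in all libraries, from 645 bp upstream to 864 bp downstream in shGFP. The shGFP peak was wider than all 3 shLuc peaks, whose mean was 1292 ± 211 bp (SD, n = 3).

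Sox17 and Pax9 had peaks at an internal transcript start and not at the 5′ end of the gene. Sox17 is the Sox factor of definitive endoderm and of the endothelium. Its peak was 2021 bp wide in shGFP (chr1:4491741-4493761) and 461, 1934 and 1944 bp wide in shLuc replicates 1, 2 and 3. The peak of shLuc replicate 1 (chr1:4493074-4493534) was much narrower than the others and lay inside them, and the shLuc SD was 853 bp around a mean of 1446 bp. In shGFP the peak ran from 3593 to 5613 bp downstream of the 5′ end, where 98.7% of its bases were exons of Sox17 and 61.1% were coding sequence. The narrow peak of shLuc replicate 1 covered no transcript start and counted as a promoter peak because it came within 70 bp of one. Pax9, needed for teeth, thymus and the axial skeleton, had peaks of 726, 385, 564 and 483 bp, the shGFP one at chr12:56695278-56696003. They began 3511 to 3756 bp downstream of the annotated 5′ end and covered an internal transcript start, and the shGFP peak was wider than all shLuc peaks (mean 477 ± 89.6 bp, SD, n = 3). When only the 5′ end of each gene was used as its start, a choice made after the values were seen, Sox17 and Pax9 dropped out and the other 9 members stayed.

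The T-box genes gave 3 of the 11. Tbx21 (T-bet) is the master factor of type 1 helper T cells. Its peak was 1021 bp wide in shGFP (chr11:97114612-97115632) and 1020, 1117 and 653 bp wide in shLuc replicates 1, 2 and 3, so shGFP lay within the shLuc range. Tbx20, a regulator of heart formation, had peaks of 904, 467, 746 and 706 bp (shGFP chr9:24773860-24774763), all across the 5′ end, with shGFP the widest. Tbx15, which acts in the skeleton and in fat and muscle, had 2 promoter peaks in every library but shLuc replicate 1. The first lay in an intron, 532 to 1317 bp from the 5′ end in shGFP (chr3:99240913-99241698), and was found in all 4 libraries with widths of 786, 501, 1073 and 1348 bp. The other covered an internal start, began 12742 bp from the 5′ end in shGFP, and measured 904, 1148 and 997 bp in shGFP and shLuc replicates 2 and 3. The first Tbx15 peak covered no transcript start in any library, and in shLuc replicate 1 it came within 824 bp of one, so the gene left the group when the distance was set to 500 bp.

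Among the sine oculis genes, homeobox factors that work with Eya proteins, Six4 and Six6 were open in every library. Six6, a regulator of the eye and the pituitary, had peaks of 772, 377, 743 and 880 bp (shGFP chr12:72939502-72940273), with shGFP inside the shLuc range. Six4, which acts in muscle, had the narrowest promoter peak of any member in shGFP, 285 bp (chr12:73113326-73113610), and 680, 1106 and 558 bp in shLuc. It was the only one of the 11 whose shGFP peak was narrower than every shLuc peak (mean 781 ± 288 bp, SD, n = 3). Sox8, expressed in testis and neural crest, had peaks of 1048, 860, 1208 and 1054 bp (shGFP chr17:25570295-25571342). Here too shGFP lay within the shLuc range. The peaks of Six6 and Sox8 cannot be given to these genes alone, because the start of another gene, 4930447C04Rik and 2810468N07Rik respectively, lay within 1 kb of them.

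**Figure D2:**
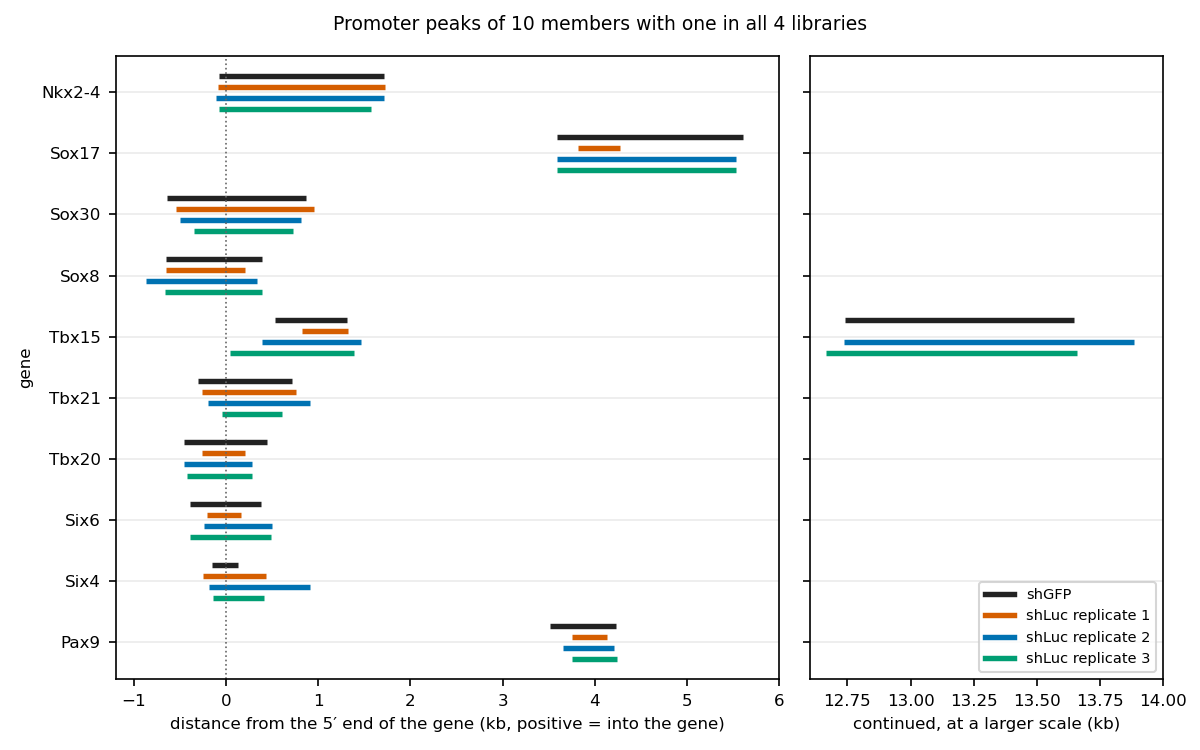
Position of every promoter peak of 10 of the 11 members with one in all 4 libraries, as distance in kb from the 5′ end of the gene (dotted line at 0, positive into the gene); each bar is 1 peak, coloured by library, and the right panel continues the axis at a larger scale. Most peaks lie across the 5′ end, while those of Sox17 and Pax9 lie more than 3 kb into the gene.

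The order of widths among libraries was set beside that of other genes. In 7 of the 11 members (63.6%) the peak of shLuc replicate 1 was the narrowest of the 4, against 74.2% of the 9150 coding genes with a promoter peak in all libraries. The shGFP peak was wider than all shLuc peaks in 4 of 11 (36.4%), Sox17, Sox30, Tbx20 and Pax9, against 44.2% of those genes, and narrower than all of them in 1 (9.09%), against 3.81%. The peak of shLuc replicate 3 was the narrowest in 3 of 11 (27.3%), against 14.6%, and that of shLuc replicate 2 in 0 of 11, against 7.14%. These differences were not tested. Over all members with a promoter peak in the library, the median of the widest peak was 1034.5 bp in shGFP and 600.0, 1106 and 1059 bp in shLuc replicates 1, 2 and 3, with a shLuc mean of 922 ± 280 bp (SD, n = 3). The same medians over all coding genes were 971, 708, 936 and 900 bp, so members were above them in 3 libraries and below in shLuc replicate 1. For forkhead genes they were 1412, 851, 1273.5 and 923 bp. These were above all coding genes in every library, and above the members in all but shLuc replicate 3. The widest promoter peaks of any member belonged to Sox11, a neural progenitor factor, with 2183, 1840 and 2241 bp in shGFP and shLuc replicates 2 and 3 and none in shLuc replicate 1, and to Tbx18, of the epicardium and ureter, with 2085 bp in shGFP and 2215 bp in shLuc replicate 3. The start of D030062O11Rik lay within 1 kb of the Tbx18 peaks. The plot of widths by gene shows these values.

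**Figure D3:**
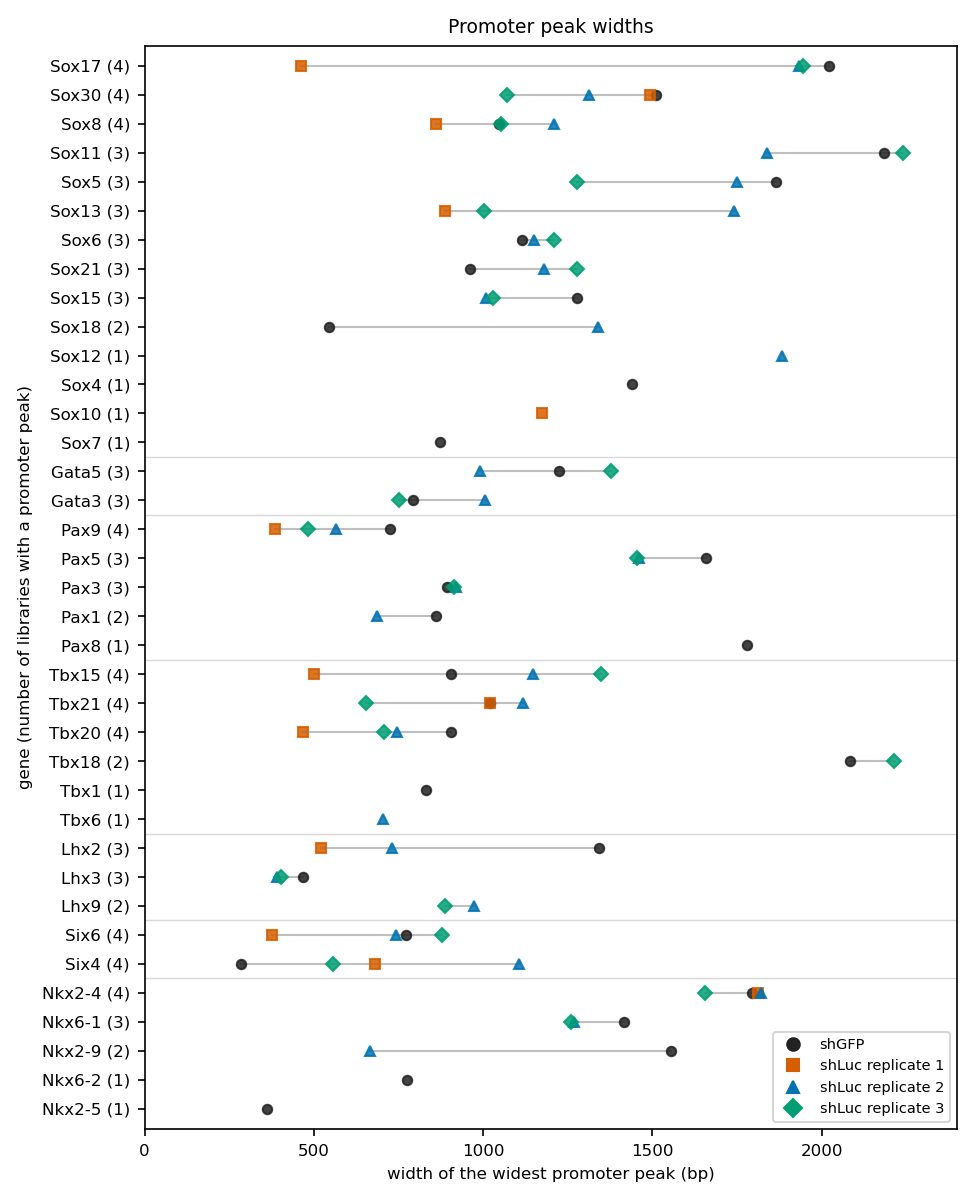
Width in bp of the widest promoter peak of 37 of the 39 members that had one in any library, ordered by family and by the number of libraries (in brackets); points are libraries and the grey line joins the lowest and the highest. Sox11 and Tbx18 have the widest peaks, Nkx2-4 varies little among the 4 libraries, and Sox17 is narrow in shLuc replicate 1 only.

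The sequence just upstream of the start is shown for the members with the widest peaks among the 11, to set beside members with no peak nearby that follow. Sequences are from RefSeq (GRCm38.p6), run 5′ to 3′ on the strand of the gene, and end at the base before the start or the first annotated exon, with each CG dinucleotide in capitals. Promoter sequences were matched for 53 of the 70 members. Sox17 and Tbx15 had no match, and the bases upstream of Sox8 are exons of its neighbour and are not shown, so Nkx2-4, Sox30 and Tbx21 are given. The 150 bases of Nkx2-4 (chr2:147085446-147085595, minus strand) hold 12 CG, the 250 of Sox30 (chr11:45980060-45980309, plus strand) hold 23, and the 250 of Tbx21 (chr11:97115332-97115581, minus strand) hold 16.
Nkx2-4: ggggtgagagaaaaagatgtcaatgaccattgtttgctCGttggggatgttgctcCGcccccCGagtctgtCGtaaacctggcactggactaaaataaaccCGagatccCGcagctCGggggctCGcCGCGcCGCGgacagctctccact
Sox30: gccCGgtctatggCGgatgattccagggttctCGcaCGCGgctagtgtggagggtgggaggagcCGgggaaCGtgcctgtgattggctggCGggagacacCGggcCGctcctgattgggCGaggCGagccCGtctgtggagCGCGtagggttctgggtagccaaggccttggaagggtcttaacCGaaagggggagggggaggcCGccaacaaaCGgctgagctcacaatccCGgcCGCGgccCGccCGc
Tbx21: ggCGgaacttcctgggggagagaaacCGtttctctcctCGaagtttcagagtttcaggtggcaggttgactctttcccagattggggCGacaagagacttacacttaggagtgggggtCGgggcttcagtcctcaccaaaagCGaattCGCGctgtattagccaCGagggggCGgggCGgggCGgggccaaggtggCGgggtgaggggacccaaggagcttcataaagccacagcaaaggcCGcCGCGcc

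At the other end, 7 members had no peak within 20 kb of any start in any library: Sox1, Sox9, Sox14, Gata6, Tbx5, Lhx4 and Lhx5. Sox1 marks neural progenitors, Sox9 directs cartilage and testis, Gata6 specifies primitive endoderm, Tbx5 patterns heart and forelimb, Lhx4 builds the pituitary and motor neurons, and Sox14 and Lhx5 act in neurons. Gata6 stood farthest from any peak: the nearest was 169644 bp away in shGFP and 169729, 169656 and 169656 bp away in shLuc replicates 1, 2 and 3. For Sox14 the nearest peak was 104301, 104491, 104289 and 104304 bp away. In both genes the 4 libraries gave nearly the same distance. For Sox9 it was 28459 bp in shGFP and 58022, 28444 and 28517 bp in shLuc, and for Sox1 it was 43717 bp and 36293, 35817 and 43566 bp. Tbx5 had its nearest peak at 122268 bp in shGFP and at 70152, 122359 and 161557 bp in shLuc, Lhx4 at 60704 and 60901, 33370 and 60716 bp, and Lhx5 at 21789 and 71513, 21561 and 85941 bp. Lhx5 was thus just outside the limit of 20 kb in shGFP and shLuc replicate 2. Depth is unknown from peak lists, so the absence of a peak says that none was listed and not that the chromatin was closed.

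Upstream sequences of Lhx4 and Sox14 are given for comparison with the open promoters. The others were on chromosomes not shown here or were not matched. The 250 bases of Lhx4 (chr1:155742028-155742277, minus strand) hold 14 CG and those of Sox14 (chr9:99876171-99876420, minus strand) hold 23, the latter as many as Sox30. The RefSeq start used for Lhx4 lies 9657 bp from the 5′ end of the gene in GENCODE, whose surroundings are poor in CpG (observed over expected 0.0885). A high count of CG was therefore present with and without a peak in these examples.
Lhx4: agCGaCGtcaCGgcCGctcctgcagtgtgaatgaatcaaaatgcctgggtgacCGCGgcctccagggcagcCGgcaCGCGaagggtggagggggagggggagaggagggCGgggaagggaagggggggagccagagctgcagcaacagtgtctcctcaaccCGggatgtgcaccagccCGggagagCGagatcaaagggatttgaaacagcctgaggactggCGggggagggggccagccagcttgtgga
Sox14: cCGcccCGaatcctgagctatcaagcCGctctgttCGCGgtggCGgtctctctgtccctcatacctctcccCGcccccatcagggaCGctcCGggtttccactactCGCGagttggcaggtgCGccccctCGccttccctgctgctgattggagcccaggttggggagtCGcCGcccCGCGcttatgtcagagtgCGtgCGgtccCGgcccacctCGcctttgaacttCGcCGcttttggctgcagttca

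CpG content was then compared over all members, because promoters rich in CpG are the ones most often open in many cell types. A promoter was called CpG-rich when the 1 kb centred on the 5′ end of the gene had at least 55% GC and an observed over expected CpG of at least 0.65. Of the members 31 of 70 (44.3%) were CpG-rich, against 36.0% of all autosomal coding genes. Of the 41 forkhead genes 65.9% were CpG-rich, and their promoter shares above were set beside those of the members without matching for CpG content. Among CpG-rich genes the gap to the background widened. In shGFP, 17 of 31 CpG-rich members (54.8%) had a promoter peak, against 91.7% of 7488 CpG-rich coding genes. In shLuc replicates 1, 2 and 3 it was 9 (29.0%), 17 (54.8%) and 14 (45.2%) members, against 79.7%, 91.6% and 85.5%. The shLuc means were 43.0% ± 13 for members and 85.6% ± 5.95 for all such genes (SD, n = 3). The ratio of both shares was 0.598 in shGFP and 0.364, 0.599 and 0.528 in shLuc replicates 1, 2 and 3 (mean 0.497 ± 0.120, SD, n = 3). Among genes that were not CpG-rich, 17, 5, 14 and 12 of 39 members (43.6%, 12.8%, 35.9% and 30.8%) had one, against 45.2%, 30.8%, 44.6% and 39.9%, a smaller gap.

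Members without a promoter peak in any library were unlike other genes without one in CpG content. Of 31 such members 12 were CpG-rich (38.7%), against 310 of 7079 such coding genes (4.38%), and the median observed over expected CpG was 0.626 against 0.175. The 12 are Sox1, Sox9, Gata2, Pax2, Tbx2, Lhx1, Lhx5, Lhx6, Six2, Six5, Nkx1-1 and Nkx3-2. Members with a promoter peak in all 4 libraries were close to other genes in this respect, with 7 of 11 CpG-rich (63.6%) against 60.0% and medians of 0.685 and 0.743. From the genes open in no library to those open in all 4, the median changed from 0.626 to 0.685 for members and from 0.175 to 0.743 for all coding genes. CpG content thus separated open from unlisted promoters less among members than among coding genes. This difference was not tested.

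**Figure D4:**
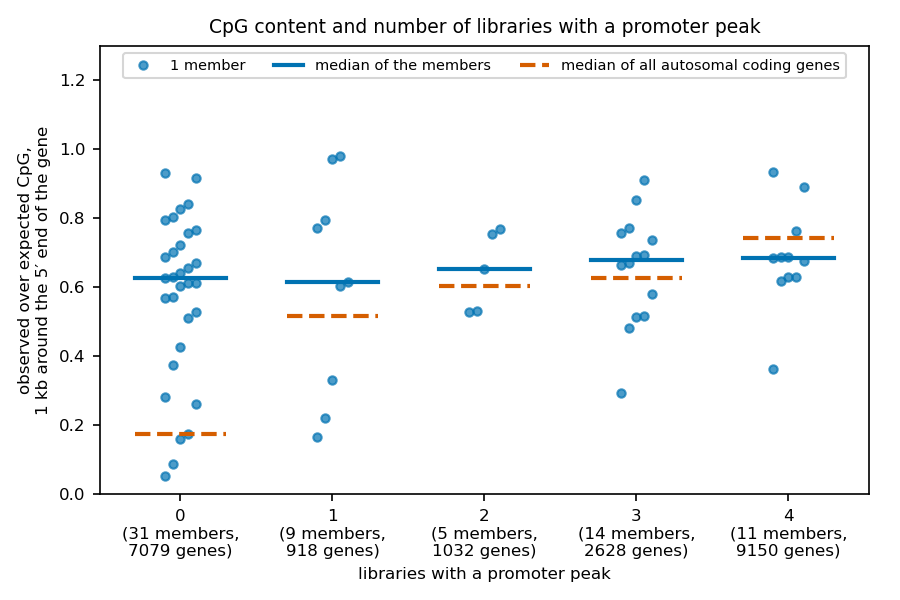
Observed over expected CpG in the 1 kb around the 5′ end of the gene, by the number of libraries with a promoter peak; points are members, solid lines are medians of members and dashed lines are medians of all autosomal protein-coding genes. Among genes open in no library the median is 0.626 for members and 0.175 for all coding genes.

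The number of annotated starts, which gives a gene more chances of a promoter peak, was compared as well. Members had a median of 2 starts and all coding genes had 3. Of the 27 members with 1 start, 14, 5, 13 and 10 had a promoter peak in shGFP and shLuc replicates 1, 2 and 3 (51.9%, 18.5%, 48.1% and 37.0%), against 33.5%, 22.9%, 33.4% and 29.2% of coding genes with 1 start. Of the 14 members with 5 or more starts it was 7, 3, 8 and 7 (50.0%, 21.4%, 57.1% and 50.0%), against 85.1%, 70.0%, 84.4% and 78.6%. For the 29 members with 2 to 4 starts the shares were 44.8%, 20.7%, 34.5% and 31.0%, against 56.1%, 42.4%, 55.7% and 50.5%. Members with a single start were thus above the background in 3 libraries, and both groups with more starts were below it in all 4. Sox6, which acts with Sox5 in cartilage and red blood cells, had 13 starts, and Pax6, the regulator of the eye and forebrain, had 24 and no promoter peak in any library.

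The remaining textbook lineage genes fell between these ends. In the Sox family, Sox18 of the vascular endothelium had a promoter peak of 544 bp in shGFP and 1339 bp in shLuc replicate 2 only, and Sox10 of the neural crest had one of 1174 bp in shLuc replicate 1 only. Gata2 and Gata4, of blood progenitors and of heart and endoderm, had no promoter peak but had peaks within 20 kb in all 4 libraries. The nearest peak to Gata2 was 3548 bp away in shGFP and 3533, 3606 and 3676 bp away in shLuc, nearly the same distance in all 4 lists. In shGFP and shLuc replicate 1 it was the only peak within 20 kb, and the start of another gene lay within 1 kb of it. The nearest peak to Gata4 was 10237 bp away in shGFP and 10244, 10278 and 6051 bp away in shLuc. Gata3, of T cells and trophoblast, had promoter peaks of 794, 1005 and 752 bp in shGFP and shLuc replicates 2 and 3. The start of another coding gene, 9230102O04Rik, lay within 1 kb of these peaks, and only that of shLuc replicate 3 covered a start of Gata3. Pax3, of neural crest and muscle precursors, had nearly equal widths of 893, 920 and 913 bp in the same 3 libraries, and its relative Pax7 had no promoter peak in any. Pax5, the B-cell factor, had peaks of 1658, 1460 and 1455 bp in those libraries, 5612 bp or more downstream of the 5′ end and shared with the start of 5730488B01Rik.

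Tbx6, of the presomitic mesoderm, had a promoter peak in shLuc replicate 2 only (703 bp), upstream of the gene. Lhx2, needed for eye and forebrain, was the 1 member open in all libraries but shLuc replicate 3. Its peaks near the 5′ end were 855, 520 and 679 bp wide in shGFP and shLuc replicates 1 and 2. A wider peak, of 1341 bp in shGFP and 730 bp in shLuc replicate 2, covered an internal start. In shGFP it began 11150 bp from the 5′ end. Lhx3, the pituitary and motor neuron factor, had narrow peaks of 467, 392 and 402 bp, and Lhx1, of head organizer and kidney, had none at its promoter. Six2 of nephron progenitors and Six3 of the forebrain had no promoter peak. Nkx6-1, of motor neurons and beta cells, had 1415, 1269 and 1261 bp in shGFP and shLuc replicates 2 and 3. Nkx2-1 of thyroid and lung and Nkx2-2 of the ventral neural tube had no promoter peak, but both had a peak within 20 kb in these 3 libraries. Across these genes shLuc replicate 1 was the library that most often lacked the peak.

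Between the hairpins, 6 members had a promoter peak in shGFP and in no shLuc library, a pattern found in 1.76% of coding genes. They were Sox4, a SoxC factor active in many progenitors (1441 bp), and Sox7 of primitive endoderm and endothelium (874 bp). Also among them were Pax8 of thyroid and kidney (1780 bp) and Tbx1 of the pharyngeal arches (831 bp). The rest were Nkx2-5 of the heart (361 bp) and Nkx6-2 of the neural tube and glia (774 bp). The peaks of Pax8, Tbx1 and Nkx2-5 did not cover the 5′ end of the gene. That of Tbx1 covered no start and came within 227 bp of one. The nearest shLuc peak lay 82481, 82481 and 82691 bp from Sox7 in replicates 1, 2 and 3, but 117172, 4236 and 35101 bp from Sox4 and 41150, 4852 and 41057 bp from Nkx2-5. At equal list length 7 members were open in shGFP only and 1 in all shLuc libraries only, against 320 and 388 of 20807 coding genes. In the full lists the opposite pattern, a promoter peak in all 3 shLuc libraries and not in shGFP, was shown by Sox13 alone, against 0.298% of coding genes. Sox13, a SoxD gene of T cells and arteries, had peaks of 887, 1742 and 1004 bp in shLuc replicates 1, 2 and 3, and the nearest shGFP peak was 3997 bp away. With 1 shGFP library, a difference between hairpins and one between single libraries cannot be told apart at these genes.

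Beyond the promoters, the members with most peaks within 20 kb of a start were Sox6 and Sox13, followed by Nkx2-6, Pax8, Sox15, Sox8 and Tbx10, which tied at a mean of 2.5 over the 4 libraries. Sox6 had 5, 3, 5 and 5 such peaks in shGFP and shLuc replicates 1, 2 and 3, of which 4, 3, 4 and 4 lay more than 1 kb from the start of every annotated gene. Its promoter peaks, in every library but shLuc replicate 1, covered no start of Sox6 and lay within 1 kb of a start of 1110004F10Rik. Its 13 starts cover a long gene, so the window was larger than for most members. Sox13 had 2, 3, 3 and 3 peaks, Nkx2-6 of the pharynx and embryonic heart 3, 2, 3 and 2, and Pax8 4, 1, 3 and 2. Sox8 and Tbx10 each had 3, 3, 2 and 2. Sox15, of muscle progenitors and trophoblast, had 3, 1, 3 and 3, all of them near the start of some gene. Of the 31 members without a promoter peak in any library, 24 (77.4%) had a peak within 20 kb in at least 1 library and 9 (29.0%) in all 4, against 61.5% and 26.4% of the 7079 coding genes without one. When peaks within 1 kb of a start of a different gene were left out, the members with a peak within 20 kb in all libraries went from 29 to 16. The same count over all coding genes is not given here, so the drop is not read as a trait of the members. For promoter peaks, leaving them out changed the shLuc ratio of members to background from 0.598 to 0.697.

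Genes known to work with or to be related to these families were described from a list of 26. A promoter peak was found at 19, 11, 17 and 16 of them in shGFP and shLuc replicates 1, 2 and 3. The shLuc mean was 56.4% ± 12.4 (SD, n = 3), near the mean of 55.4% of all coding genes. In shGFP the share was 73.1%, against 61.9% of all coding genes. In all 4 libraries, 9 (34.6%) had a promoter peak, against 44.0% of all coding genes. They were the T-box genes Eomes and Mga, the Gata cofactor Zfpm2 and Paxip1. The others were the sine oculis partners Eya1, Eya3 and Dach1 and the Groucho corepressors Tle1 and Tle4. Tle4 had widths of 1644, 1478, 1705 and 1426 bp, while Eomes, a T-box factor of mesendoderm and trophoblast, had 1410, 262, 1199 and 1303 bp, with shLuc replicate 1 far narrower than the rest. In no library was there a promoter peak at T (Brachyury), Lmx1b, Ldb2, Tle2 or Tle3 (19.2%), against 34.0% of all coding genes. T, the founding T-box gene and a mark of early mesoderm, had a single peak within 20 kb, in shLuc replicate 3.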

How the data were processed

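ATAC-seq peaks were measured in 4 libraries of E14 ESCs (1 shGFP, 3 shLuc). The authors deposited 1 list of peaks per library with chromosome, start and end, and no score or depth, so precision was limited to Wilson 95% intervals over genes. The submitters' processing notes name bcl2fastq, Bowtie2, MACS2 and build mm10. The methods, under a heading that covers ChIP-seq and ATAC-seq and describes downloaded data, keep the best alignment, place ties at random and keep concordant pairs. Caller settings and read shifting are not given in the sources used here. Random placement of ties bears on peaks in repeated sequence. Peaks were converted to positions counted from 1 and compared with the starts of GENCODE release 21 transcripts, by the distance from the nearest edge of the peak (Python 3.11.15, numpy 2.4.6, scipy 1.17.1, matplotlib 3.10.9). CpG content was read from the GRCm38 genome, which has the coordinates of mm10. The members, gene lists and alternatives were chosen with earlier results of these data known. Named were all members open in all libraries, in shGFP only or in shLuc only, those with no peak or with most peaks within 20 kb, and textbook lineage genes, some of which are not reported here. No test across samples was run. Alternatives were the distances, coding transcripts only, lists of equal length, peak centres, peaks at other genes left out, CpG-rich promoters as background and leaving out each shLuc library. The functions were tested on simulated data.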

Additional observations from a re-analysis of the deposited data

How the results depend on the processing

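In all, 105 values of 11 results were recomputed, of which 90 moved by less than the spread between replicates, the counting interval or 1.5-fold. None reversed, but shares, counts and widths have no sign to reverse. Only the difference between shGFP and shLuc and the ratio of members to background could have done so. Leaving out a shLuc library cannot move a shLuc mean by as much as the SD, so those values say little about stability. Without shLuc replicate 1 the members with a promoter peak in all libraries numbered 23, and omitting the shLuc libraries one by one gave 11 to 23. At 20 kb the same omissions gave 29 to 44. With all 70 members set against CpG-rich genes only, the ratio of promoter shares was 0.390. The sides are unlike, since 39 of the members were not CpG-rich. The 20 kb share of shGFP was 68.6% at 10 kb, 91.4% at 50 kb, 64.3% at equal list length and 67.1% without peaks at other genes' starts. The shLuc mean was 80.5% at 50 kb and 47.6% without peaks at other genes' starts. Members with a peak in all libraries numbered 44 at 50 kb and 16 without peaks at other genes' starts. Members with none numbered 13 at 10 kb, 3 at 50 kb, 15 at equal list length and 16 without peaks at other genes' starts. A wider window, fewer peaks or fewer libraries change such counts by construction. Of the 11 members open in all libraries, Tbx15 was lost at 500 bp and with distances from peak centres, 3 members, Pax9 and Six4 among them, at equal list length, Six6 and Sox8 without peaks at other genes' starts, and Pax9 and Sox17 with the 5′ end of the gene only, a choice added after seeing the data. At 5 kb, Gata2, Lhx6, Nkx6-3 and Sox13 joined them. No paired analysis was possible because shGFP carries no replicate number. Peak lists hold no depth, so a missing peak may be a missed one.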
